A study of Homo sapiens with 18 samples.

Results

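Potassium channel genes were followed across 18 libraries of human forebrain organoids given dopamine or cocaine. They were taken as the gene symbols that begin with KCN, continue with letters and end in a number, which leaves out antisense genes and pseudogenes, and that had at least 10 raw reads in at least 3 libraries. Of 95 such symbols in a count table of 53853 genes, 83 met the read minimum, and these 83 are the members described here. The members were thus selected on raw read counts pooled over all treatments, not on any difference between them. All 83 also passed the expression filter of edgeR, which kept 18913 genes for testing. At least 10 reads were found in every library for 68 members, and 15 fell below that in at least 1 library. No member reached 10 reads in libraries of 1 treatment group only. KCNK5 nonetheless met the minimum through control + inhibitor, with 12, 10 and 10 reads. Elsewhere it reached 10 only in dopamine + inhibitor 2, with 11. Comparisons that use control + inhibitor are therefore biased for KCNK5, which became a member through its reads there. Just inside the minimum were KCNK5, with 4 to 12 reads per library, and KCNE2, with 1 to 12. Just outside were KCNK7, which reached 10 reads in 1 library, and KCNA7, whose highest count was 8.

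The organoids were 3-dimensional neural cultures grown from H9, an established human embryonic stem cell line, and patterned toward the ventral forebrain with SHH (100 ng/mL) and purmorphamine (1 µM), an agonist of the SHH pathway. The 6 groups of 3 libraries were vehicle control, control + inhibitor, dopamine, dopamine + inhibitor, cocaine, and cocaine + inhibitor. All 6 groups received 100 µM ascorbic acid, itself an antioxidant, as the vehicle. Dopamine or cocaine was present at 1 µM, and the inhibitor of reactive oxygen species was 100 µM acetylcysteine added ahead of each dose. Dosing began on day 83, was repeated daily for 1 week and ended with a last dose of 1 h. All libraries came from 1 cell line, and whether the libraries within a group were independent cultures is not stated in the labels. The p-values therefore reflect only sample-to-sample spread, part or all of which may be technical. The comparisons ask whether dopamine or cocaine changed expression against vehicle and whether the inhibitor altered that change.

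Potassium channels let potassium ions leave or enter a cell along their gradient. In neurons they set the resting potential, end each action potential and control how often a cell fires. Voltage-gated channels (Kv) open on depolarisation, inward rectifiers (Kir) and tandem-pore channels (K2P) act near rest, and calcium- or sodium-activated channels open when those ions rise inside the cell. Auxiliary subunits bind the pore-forming proteins and change their gating or their delivery to the membrane. In epithelia such as the choroid plexus and the pigment layer of the eye, other members of the same families move potassium for fluid transport.

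Reads per library ranged from 23789195 to 30327891, and 0.19% to 0.215% of them fell on the 83 members. Checked against the labelled cell type, neural cultures, 8 of 8 neuronal markers were detected in every library, with a summed level of 5630 to 7670 TPM per library, a transcript abundance scaled for gene length and depth. Of 3 endothelial markers, PECAM1 and CDH5 stayed at or below 0.3 TPM in all libraries and CLDN5 was at 4.28 to 16.2 TPM. Some libraries stood apart. The 5 dividing-cell markers summed to 361 TPM in cocaine 3 and 385 TPM in cocaine + inhibitor 1, against 155 to 273 TPM in the other 16 libraries. Dopamine + inhibitor 3 held 38.5 TPM of the pigment cell gene PMEL, against at most 5.29 TPM elsewhere. In bulk RNA, fewer cells of a type and less RNA per cell cannot be told apart.

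In vehicle controls the 83 members summed to 990 ± 28.3 TPM (SD, n = 3). Levels of different genes are compared in TPM only. Of the members reported by name, KCNH2 (the delayed rectifier hERG) was the highest, at 53.1, 48.9 and 47.6 TPM in the 3 control libraries. KCNK10, the mechanosensitive K2P channel TREK-2, stood at 41.8, 43.9 and 40.9 TPM and did not overlap KCNH2 or KCNC4. From KCNC4 (34.3 ± 1.01 TPM) down through KCNK3, KCNH8, KCNC1, KCNN1, KCNF1, KCNIP1 and KCND2 (26.3 ± 0.553 TPM), each gene overlapped the next, so their order was not resolved by 3 libraries. Control levels were at or above 20 TPM for 15 members and between 5 and 20 TPM for 37. Another 15 lay between 1 and 5 TPM, 15 between 0.1 and 1 TPM, and only KCNE1 was below 0.1 TPM.

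**Figure D1:**
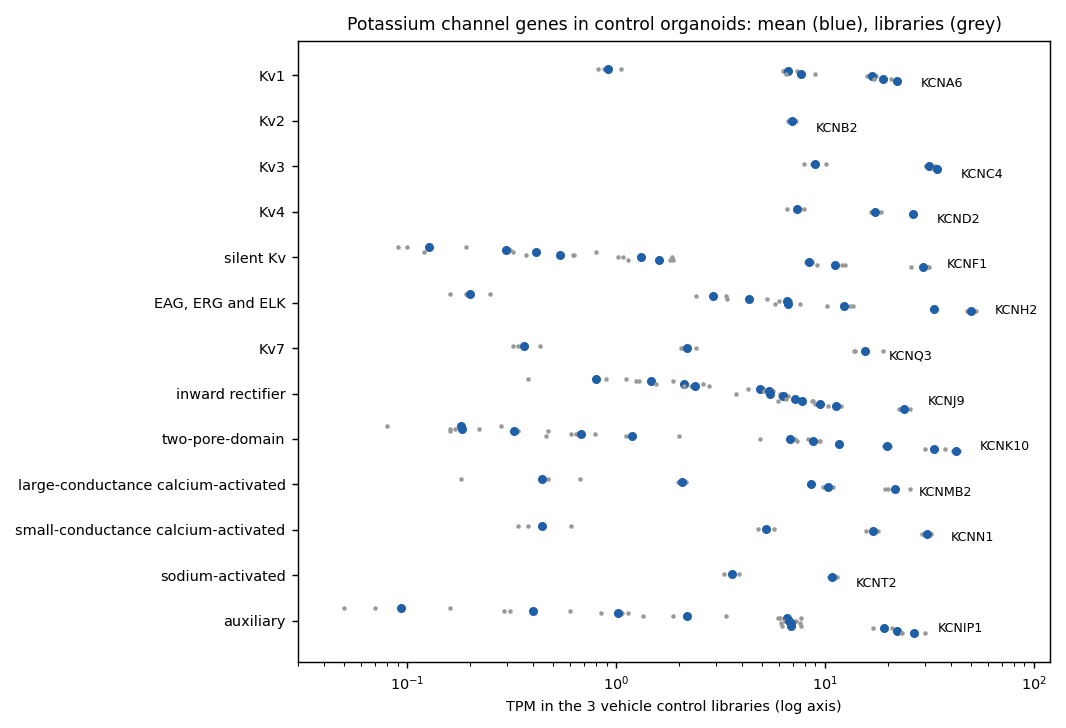
Levels of the 79 potassium channel genes reported by name in the 3 vehicle control libraries, by subfamily, in TPM on a log axis. Blue points are means and small grey points are single libraries. The highest gene drawn in each subfamily is named. KCNH2 is farthest right at 49.9 TPM, followed by KCNK10 at 42.2 TPM, and KCNE1 is farthest left at 0.0933 TPM.

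The Kv7 family held the largest share of the control sum, 15.9%. KCNQ3, a subunit of the M-current that damps repetitive firing, averaged 15.5 ± 2.89 TPM, while KCNQ5 and the mainly epithelial and cardiac KCNQ1 were at 2.18 and 0.363 TPM. The K2P channels held 12.6% (11 of 15 symbols were members), led by KCNK10 and the acid-sensitive KCNK3 (TASK-1). The ether-à-go-go families (EAG, ERG and ELK) held 11.7%, with all 8 symbols detected. Auxiliary subunits held 9.96%, led by KCNIP1, a calcium-binding partner of Kv4. Kv3 channels, whose fast gating permits rapid firing, held 9.42%, and inward rectifiers held 8.94%, led by KCNJ9. The other families were Kv1 at 7.39%, led by KCNA6, the small-conductance calcium-activated channels at 5.4%, led by KCNN1, and the silent Kv subunits at 5.39%, led by KCNF1. Silent subunits form no channel alone and modify Kv2. Kv4 held 5.15%, led by KCND2, the large-conductance calcium-activated (BK) family 4.34%, led by its beta subunit gene KCNMB2, Kv2 2.31% and the sodium-activated channels 1.46%, led by KCNT2. KCNMA1, the only BK pore gene, was at 10.3 ± 0.603 TPM.

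Cocaine against control was the only planned pairwise comparison in which members passed the test with all libraries in the fit. With edgeR's quasi-likelihood test and Benjamini-Hochberg adjustment over all 18913 genes, 9 of 83 members fell and none rose at an adjusted p under 0.05. Among all genes tested, 4.33% were called in this comparison, 2.59% as lower and 1.73% as higher; the 9 members are 10.8% of the 83. The 9 were KCND2 and KCND3 (Kv4), KCNC1 and KCNC4 (Kv3), KCNA6 (Kv1), the beta subunit gene KCNAB2, KCNJ3 and KCNJ9 (G-protein-gated inward rectifiers) and KCNK9 (K2P). At an unadjusted p under 0.05 there were 24 lower and 6 higher members, where 23.1% of all genes reached that level, 11.8% lower and 11.3% higher. The 3 cocaine libraries lay wholly below the 3 controls for 25 members, against 16.3% of all genes, and wholly above them for 11, against 16% of all genes. The median log2 fold change was -0.08 over the members and 0.01 over all genes tested. DESeq2 called 1516 of all genes and 15 members, among them all 9, with KCNJ13 as its only higher member.

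Those 9 calls rested on the full set of libraries. Leaving out cocaine 2, cocaine 3, control 1 or control 2 in turn left 0 calls, with 19 to 28 members at an unadjusted p under 0.05. The share of all genes at that level in those fits is not given here. Leaving out control 3 left only KCND3, and leaving out cocaine 1 gave 10. Each of the 9 kept its negative sign under all 11 alternatives tried. That check had little room to fail, because the cocaine libraries lay wholly below the controls for all 9.

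The Kv4 channels carry the A-type current, which opens below threshold and delays firing. KCND3, encoding Kv4.3, had 85.5, 76.2 and 77.6 CPM (read counts scaled to library size) in the controls and 67.2, 58 and 51.1 CPM with cocaine. The groups did not overlap, and KCND3 fell by 26.3% (log2 fold change -0.44, SE 0.09, adjusted p = 0.0245, edgeR). KCND2, encoding Kv4.2, had 67.6, 67.1 and 65.4 CPM in controls and 54.8, 49.7 and 42.7 CPM with cocaine. It likewise fell without overlap, by 26.4% (log2 fold change -0.44, SE 0.1, adjusted p = 0.0313, edgeR). The third Kv4 gene, KCND1, did not pass the test. Of the Kv4 partners, KCNIP4 had a log2 fold change of -0.31 (adjusted p = 0.128, edgeR), and KCNIP1 had 1010, 878 and 949 reads in controls against 770, 641 and 542 with cocaine, without passing (adjusted p = 0.18, edgeR). DPP6, a membrane partner of Kv4 outside the KCN symbols, fell (log2 fold change -0.41, SE 0.08, adjusted p = 0.022, edgeR).

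Of the Kv3 genes, KCNC4 and KCNC1 fell with cocaine. KCNC4 had 43.8, 41.7 and 44.3 CPM in controls and 36.8, 32.3 and 27.2 CPM with cocaine, a fall of 25.7% without overlap (log2 fold change -0.43, SE 0.1, adjusted p = 0.0289, edgeR). KCNC1 had 87.2, 78.9 and 80.3 CPM in controls and 69.9, 69.6 and 61.5 CPM with cocaine, a fall of 18.4% (SE 0.08 on the log2 scale, adjusted p = 0.0444, edgeR). KCNC2 gave a log2 fold change of -0.42 (adjusted p = 0.183, edgeR). Summed over the family, Kv3 stood at 93.3 ± 4.64 TPM in controls and 71 TPM with cocaine, and Kv4 at 51 ± 2.1 and 38.5 TPM.

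KCND3 and KCNC4 lie on chromosome 1, and their upstream sequences are shown because both genes fell with cocaine and the windows differ in their motifs. Each line gives the 250 bases before the annotated gene start, 5′ to 3′ on the gene's strand, from RefSeq on GRCh38.p14. These windows are chr1:111989669-111989918 (minus strand) for KCND3 and chr1:110210064-110210313 (plus strand) for KCNC4. Each lies outside the annotated span of its own gene, and overlap with other genes was not checked. Capitals mark the GC box GGGCGG, the CCAAT box CCAAT and the TATA box TATAAA on either strand.
KCND3: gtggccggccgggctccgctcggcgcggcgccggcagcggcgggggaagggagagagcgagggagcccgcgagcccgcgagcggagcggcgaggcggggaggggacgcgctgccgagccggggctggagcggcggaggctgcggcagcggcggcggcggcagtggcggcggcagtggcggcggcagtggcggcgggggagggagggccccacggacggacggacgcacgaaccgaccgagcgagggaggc
KCNC4: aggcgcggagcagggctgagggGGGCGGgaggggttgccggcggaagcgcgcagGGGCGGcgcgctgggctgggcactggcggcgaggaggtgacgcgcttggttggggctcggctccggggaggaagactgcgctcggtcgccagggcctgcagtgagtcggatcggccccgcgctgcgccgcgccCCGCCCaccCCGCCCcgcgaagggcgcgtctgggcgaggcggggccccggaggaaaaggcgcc
KCNC4 held 4 GC boxes, starting 228, 196, 63 and 54 bases before the gene start, and KCND3 held none of the 3 motifs. Both windows were rich in G and C, at 79.2% in KCNC4 and 82.8% in KCND3, with 36 and 44 CpG pairs. Over all 27305 RefSeq promoters the median was 58% and 11 CpG pairs, and over the 60 members with a promoter in the table it was 65% and 16.5. A GC box was present in 36 of the 60 members (60%) and in 42.3% of all promoters, and in 4 of the 7 cocaine-lowered members with a promoter in the table. These matches describe letters only and say nothing of what binds there.

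KCNA6, the leading Kv1 gene here, had 56.8, 55 and 56.5 CPM in controls and 49.7, 45.6 and 49.9 CPM with cocaine. It fell by 13.7% (log2 fold change -0.21, SE 0.05, adjusted p = 0.0293, edgeR), a small change between groups that were each tightly spaced. KCNAB2, whose product binds Kv1 channels and aids their delivery to axons, had 35.7, 35.7 and 36.7 CPM in controls and 29.4, 31.9 and 29.9 CPM with cocaine. It fell by 15.6% (log2 fold change -0.24, SE 0.06, adjusted p = 0.0313, edgeR), again without overlap. Of the 6 Kv1 members KCNA6 alone passed the test. The largest of the other Kv1 changes was that of KCNA5, at -0.6 (SE 0.2, adjusted p = 0.0796, edgeR).

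KCNJ3 and KCNJ9 encode GIRK1 and GIRK3, channels opened by G proteins downstream of receptors such as the D2-type dopamine receptors. KCNJ3 had 13.8, 16 and 15.8 CPM in controls and 12.4, 9.77 and 8.61 CPM with cocaine, a fall of 32.5% (log2 fold change -0.57, SE 0.15, adjusted p = 0.0396, edgeR). KCNJ9 had 67.4, 76.2 and 70.8 CPM in controls and 61.7, 57.5 and 58 CPM with cocaine, a fall of 17.3% (SE 0.07 on the log2 scale, adjusted p = 0.046, edgeR). For both genes the 3 cocaine libraries lay below the 3 controls. Of the other GIRK genes, KCNJ5 (GIRK4) gave a log2 fold change of -0.62 (SE 0.21, adjusted p = 0.0934, edgeR), and KCNJ6 (GIRK2) overlapped, with 4.65 to 5.08 CPM in controls and 4.47 to 5.29 CPM with cocaine. KCNK9, the acid-sensitive K2P channel TASK-3, had 29.3, 28.1 and 30.4 CPM in controls and 22.7, 20.8 and 19.8 CPM with cocaine. Its fall of 27.9% had the smallest adjusted p of the 83 (log2 fold change -0.47, SE 0.1, adjusted p = 0.0236, edgeR).

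**Figure D2:**
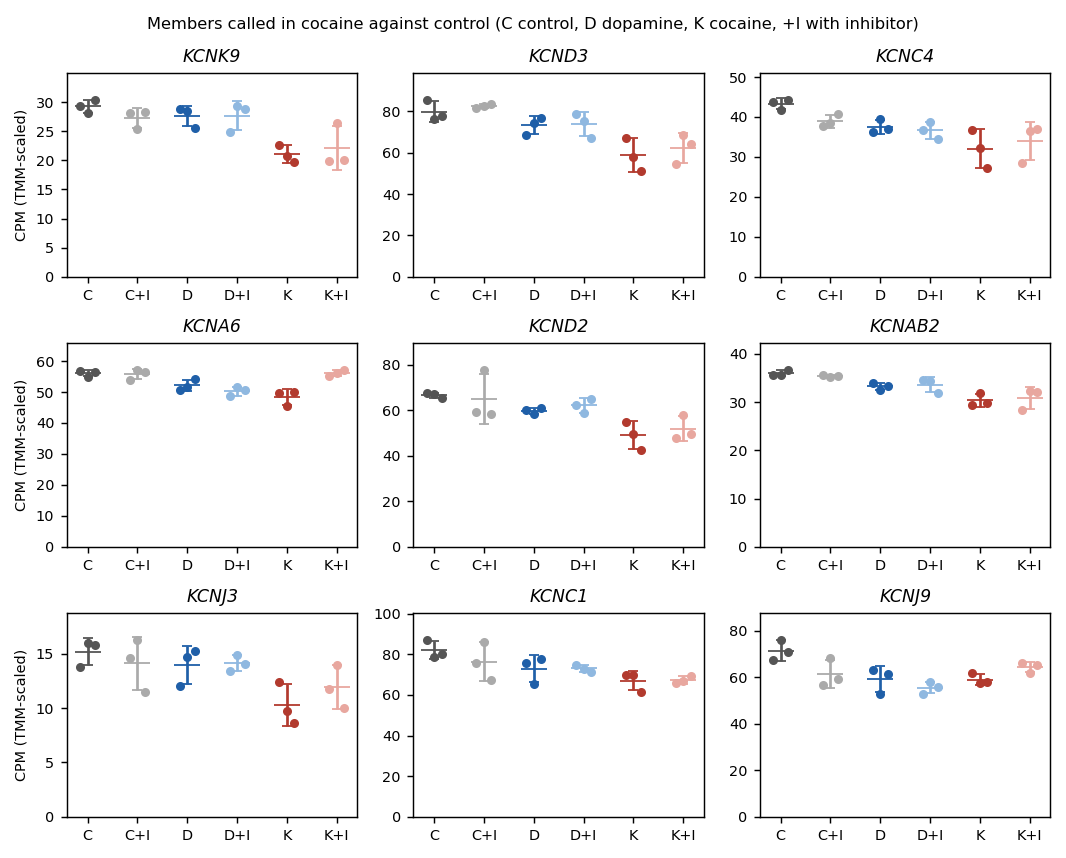
The 9 potassium channel genes that fell with cocaine, in all 6 groups, in CPM scaled between libraries. Points are the 3 libraries of a group (C control, D dopamine, K cocaine, +I with inhibitor), the long bar is their mean and the error bar is the SD. Cocaine libraries lie below the controls in every panel, and for KCNA6 and KCNJ9 the cocaine + inhibitor libraries lie within the range of control + inhibitor.

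Marker genes of several cell types moved with cocaine beside these channels. The dividing-cell markers summed to 170 to 195 TPM in controls and 228 to 361 TPM with cocaine, and PCNA was called higher (adjusted p = 0.0319, edgeR) of 5 markers. The 8 interneuron markers summed to 584 to 669 TPM in controls and 294 to 448 TPM with cocaine, with 3 of 8 called lower (GAD2, SLC32A1 and DLX6). The 8 neuronal markers summed to 6990 to 7410 TPM and 5630 to 6360 TPM, with DCX and MAPT called lower, while the 7 radial glia markers summed to 1930 to 2020 TPM and 2190 to 2490 TPM, with VIM called higher. Other lists overlapped. The 5 glutamatergic neuron markers summed to 91.9 to 96.2 TPM in controls and 96 to 101 TPM with cocaine. For the 6 astrocyte markers the sums were 337 to 365 TPM and 338 to 379 TPM. Among all genes tested, 2.59% were called lower and 1.73% higher in cocaine against control. The part of the marker shifts in the channel results was not tested. Without cocaine 3 and cocaine + inhibitor 1, the libraries highest in dividing-cell markers, no member was called in cocaine against control by edgeR, with 25 at an unadjusted p under 0.05. The share of all genes at that level in this fit is not given here. The 9 genes called in the full set had log2 fold changes of -0.46 to -0.23 there, among them KCNK9 at -0.43 (-0.47 with all libraries), KCNAB2 at -0.23 (-0.24) and KCND3 at -0.35 (-0.44). None of the dividing-cell, interneuron, neuronal or radial glia markers was at 0 in any library.

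With the inhibitor present, cocaine + inhibitor against control + inhibitor gave 0 calls among the 83 by edgeR, where 0.0211% of all genes were called. At an unadjusted p under 0.05 there were 22 members, 19 lower and 3 higher, against 16.6% of all genes, 8.27% lower and 8.38% higher. DESeq2 called 250 of all genes and, among the members, KCND3 and KCNK3, both lower. The cocaine + inhibitor libraries lay wholly below control + inhibitor for 18 members, against 8.75% of all genes, and wholly above for 1, KCNJ6, against 7.89%. Both the 19 and the 18 include KCNK5, which met the read minimum through control + inhibitor and so leaned toward a fall here. The edgeR count of 0 calls in this comparison became 0 to 12 on leaving out 1 library in turn. Without cocaine + inhibitor 2, edgeR called 12 members, 10 lower and 2 higher. The share of all genes called in that fit is not given here, so the 12 cannot be set against a background. In cocaine + inhibitor 2 the dividing-cell markers summed to 198 TPM, within the range of 155 to 214 TPM in the 12 libraries without cocaine, against 270 and 385 TPM in the other 2 of its group. The interneuron markers summed to 605 TPM there, against 383 and 410 TPM in the other 2 and 529 to 672 TPM in control + inhibitor. The part of these marker levels in the count of calls was not tested. KCND3 had 81.7, 82.4 and 83.4 CPM in control + inhibitor and 54.3, 68.3 and 64 CPM in cocaine + inhibitor (log2 fold change -0.41, SE 0.09, adjusted p = 0.106, edgeR). KCND2 gave 59.3, 77.9 and 58.3 CPM against 48, 58.2 and 49.6 CPM (log2 fold change -0.33, adjusted p = 0.177, edgeR). For both Kv4 genes every cocaine + inhibitor library lay below every control + inhibitor library.

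KCNA6 and KCNJ9 were different in this respect. Both were picked from genes called for low levels in the cocaine libraries without inhibitor. Comparisons that reuse those libraries, the interaction included, lean toward a rise with inhibitor. KCNA6 had 53.9, 57.2 and 56.5 CPM in control + inhibitor and 55.3, 56.2 and 57.2 CPM in cocaine + inhibitor, a log2 fold change of 0.01 (SE 0.05). Against cocaine alone the cocaine + inhibitor libraries were all higher for KCNA6 (log2 fold change 0.22, SE 0.05, unadjusted p = 0.000339, adjusted p = 1, edgeR). KCNJ9 gave 56.6, 68.3 and 59.3 CPM against 66, 61.8 and 65.5 CPM, a log2 fold change of 0.07 (SE 0.07). Its baseline also differed: the inhibitor alone against control gave KCNJ9 a log2 fold change of -0.22 (SE 0.07, adjusted p = 0.824, edgeR), with overlap. For KCNA6 the inhibitor alone gave -0.01 (SE 0.05). The difference between the cocaine effects with and without inhibitor, tested as an interaction, was 0.22 for KCNA6 and 0.34 for KCNJ9 on the log2 scale, and neither passed (adjusted p = 0.918 for both, edgeR). No member passed either interaction test by edgeR or DESeq2, with 8 members at an unadjusted p under 0.05 for cocaine and 7 for dopamine. Among all genes tested, 0% were called for the cocaine interaction and 0.00529% for the dopamine one, with 5.26% and 8.35% at an unadjusted p under 0.05.

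No interaction passed, which with 3 libraries a group does not show that none exists. The cocaine effect was also averaged over both inhibitor states, 6 libraries against 6, a comparison added after the data had been seen. In this comparison 19 members fell and 2 rose (edgeR), where 14.1% of all genes were called, 7.16% as lower and 6.95% as higher. At an unadjusted p under 0.05 there were 32 members, against 29.7% of all genes. The adjusted calls shared 7 genes with cocaine against control, and KCNA6 and KCNJ9 were the 2 that did not pass. The averaged comparison holds the same cocaine and control libraries, so the shared calls are not a separate test. All 6 cocaine libraries lay below all 6 others for 9 members, against 2.37% of all genes, and above them for none, against 2.01%. The 9 were KCND2, KCND3, KCNC4, KCNA5, KCNB2, KCNK2, KCNK3, KCNAB1 and KCNAB2. KCND3 fell by 25.4% (log2 fold change -0.42, SE 0.07, adjusted p = 0.00239, edgeR) and KCND2 by 23.4%, while KCNK9 also fell by 23.4% (adjusted p = 0.00471, edgeR) and KCNAB2 by 14.2%. These 4 genes kept their call under all 16 alternatives, which included leaving out each of the 12 libraries in turn and leaving out the pair highest in dividing-cell markers. That last alternative left only these 4 of the 21 calls, and leaving out cocaine 3 alone left 10. Counts without control 1 and without control + inhibitor 2 were 12 and 13.

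Beyond Kv4 and KCNK9, the averaged comparison placed falls in most families. In Kv3, KCNC4 (-0.31) and KCNC1 (-0.24 on the log2 scale) fell. In the K2P family 3 of 11 fell, KCNK9 together with KCNK3 (log2 fold change -0.35, adjusted p = 0.0123, edgeR) and the mechanosensitive TREK-1 gene KCNK2 (-0.29). The inward rectifiers had 3 of 13 lower, KCNJ3 at -0.41, KCNJ5 at -0.57 and the glial KCNJ16 (Kir5.1) at -0.57. Among auxiliary subunits KCNAB1, KCNAB2 and KCNIP4 fell. Single members fell in Kv1 (KCNA5, -0.58), Kv2 (KCNB2, -0.23), the EAG group (KCNH1, -0.36), the BK family (the beta subunit gene KCNMB2, -0.53) and the sodium-activated channels (KCNT1, -0.46). None of 5 Kv7, 9 silent Kv or 4 small-conductance members passed by edgeR or DESeq2. At an unadjusted p under 0.05 they held KCNQ3 (0.43), KCNQ5 (-0.46) and 2 silent Kv members with negative estimates. Several of these falls were lost under some of the 16 alternatives, most by leaving out 1 library: KCNJ16 under 11, KCNMB2 under 9, KCNIP4 under 8, KCNK2 under 7 and KCNB2 under 5. DESeq2 called 3121 of all genes and 25 members, adding KCNA2, KCNA6, KCNC2 and KCNIP1 to the lower members.

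The 2 members that rose were KCNJ4 and KCNAB3. KCNJ4, the strong inward rectifier Kir2.3, had 4.55, 4.28 and 3.79 CPM in controls and 5.77, 5.74 and 6.11 CPM with cocaine, and 4.28, 3.12 and 3.82 CPM against 4.73, 4.05 and 5.94 CPM with inhibitor. The averaged rise was 0.44 on the log2 scale (SE 0.13, adjusted p = 0.031, edgeR), with overlap in the inhibitor-treated groups. KCNAB3, a Kv1 beta subunit gene, rose by 0.32 (SE 0.1, adjusted p = 0.045, edgeR). Their calls were lost under 9 and 10 of the 16 alternatives.

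**Figure D3:**
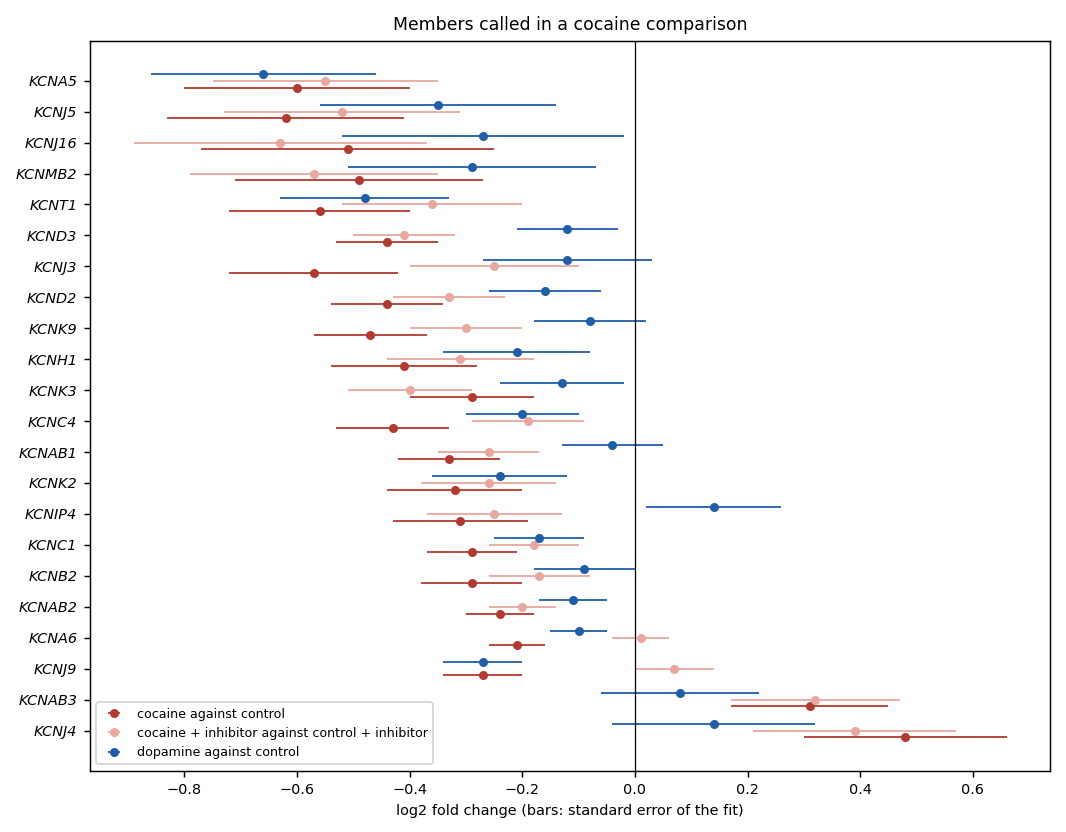
Log2 fold changes of 22 of the 23 members called with cocaine or with cocaine averaged over inhibitor states. Points are estimates from edgeR and bars their standard errors, for cocaine against control, cocaine + inhibitor against control + inhibitor, and dopamine against control. Cocaine and dopamine share the 3 control libraries. KCNA6 and KCNJ9 lie near 0 with inhibitor, and KCNIP4 is the only lowered member with a dopamine estimate above 0.

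Dopamine against control gave 0 calls among the 83 by edgeR, where 0.703% of all genes were called. At an unadjusted p under 0.05 there were 9 lower members and 1 higher, against 14.1% of all genes, 6.94% lower and 7.12% higher, and DESeq2 called KCNJ9 lower. The dopamine libraries lay wholly below the controls for 18 members, against 11.8% of all genes, and wholly above for 3, against 12.2%. The median log2 fold change was -0.09 over the members and 0 over all genes. KCNJ9 had 63.1, 52.7 and 61.5 CPM with dopamine, below the 67.4 to 76.2 CPM of the controls (log2 fold change -0.27, SE 0.07, adjusted p = 0.103, edgeR). KCNA5 had 4.03, 2.9 and 4.53 CPM against 7.03, 5.12 and 5.96 CPM (log2 fold change -0.66, SE 0.2, adjusted p = 0.124, edgeR). The dopamine libraries lay wholly below the controls for KCNC1 and KCNC4, and the summed Kv3 level was 79.3 ± 2.3 TPM. The higher member was KCNQ1, with a log2 fold change of 0.92 (adjusted p = 0.23, edgeR) on levels under 1 CPM.

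Because dopamine and cocaine were compared with the same control libraries, their fold changes are not independent. Side by side, KCND3 was at -0.12 (SE 0.09) with dopamine and -0.44 with cocaine, KCNK9 at -0.08 (SE 0.1) and -0.47, and KCNIP4 at 0.14 (SE 0.12) and -0.31. KCNJ9 was at -0.27 in both. Cocaine against dopamine, tested directly, gave 0 calls among the 83 by edgeR and by DESeq2, with 13 members at an unadjusted p under 0.05, against 11.8% of all genes. edgeR called 0% of all genes there. The smallest adjusted p for a member was 0.289, shared by KCNK9 (log2 fold change -0.39, SE 0.1) and KCNIP4 (-0.44, SE 0.12).

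The inhibitor alone gave 0 member calls by edgeR and DESeq2, where edgeR called 0% of all genes, with 8 members and 5.72% of all genes at an unadjusted p under 0.05. The 8 include KCNK5, which met the read minimum through control + inhibitor and so leaned toward a rise here. Dopamine + inhibitor against control + inhibitor gave 0 member calls by both tools, where 0.00529% of all genes were called, with 7 members and 5.58% of all genes at an unadjusted p under 0.05. Adding the inhibitor to dopamine gave 0 calls by both tools (0.00529% of all genes), with 5 members and 8.67% of all genes at an unadjusted p under 0.05. Adding it to cocaine gave 0 calls by both tools (0% of all genes), with 4 members and 3.21% of all genes at that level. Dopamine averaged over inhibitor states, also added later, gave 0 calls by edgeR (0.82% of all genes), with 10 members and 10.8% of all genes at an unadjusted p under 0.05, and KCNJ9 alone by DESeq2. A test for any difference among the 6 groups called KCND3 (adjusted p = 0.0356, edgeR) and KCNK9 (adjusted p = 0.0447, edgeR), where 1.4% of all genes were called. At an unadjusted p under 0.05 there were 23 members, against 20.4% of all genes.

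The Kv3 and Kv4 sums and the dividing-cell markers are plotted by library because the lowest channel sums and the highest marker sums fell in the same libraries. The 7 Kv3 and Kv4 genes summed to 152, 141 and 140 TPM in controls and 123, 111 and 93.8 TPM with cocaine. With inhibitor they summed to 134, 148 and 132 TPM without cocaine and 100, 124 and 114 TPM with it. The lowest sums, 93.8 and 100 TPM, were in cocaine 3 and cocaine + inhibitor 1, where the dividing-cell markers were highest. In dopamine they were at 122 to 129 TPM, with dividing-cell markers of 194 to 213 TPM, close to the controls. The 8 interneuron markers summed to 419 to 534 TPM with dopamine, wholly below the 584 to 669 TPM of the controls, with 0 of 8 called by edgeR and 5 at an unadjusted p under 0.05, all lower. The part of either marker list in the Kv3 and Kv4 values was not tested.

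**Figure D4:**
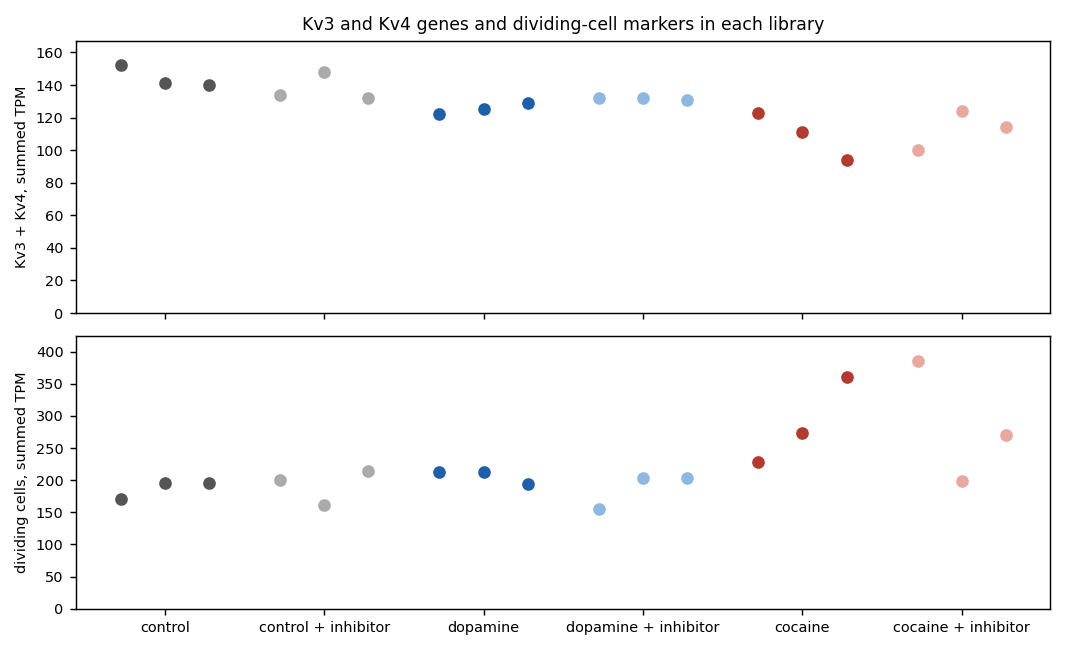
Summed level of the 7 Kv3 and Kv4 genes (top) and of 5 dividing-cell markers (bottom) in each of the 18 libraries, in TPM from 0. Each point is 1 library. Cocaine 3 and cocaine + inhibitor 1 have the lowest channel sums, 93.8 and 100 TPM, and the highest marker sums, 361 and 385 TPM.

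KCNJ13 varied most of the 68 members with at least 10 reads in every library. It encodes Kir7.1, an inward rectifier known from the apical membrane of choroid plexus and retinal pigment epithelium. Its lowest library, control 1, and its highest, cocaine 1, differed 20.1-fold in CPM, against a median of 1.77-fold over those 68. KCNJ13 had 10, 26 and 31 reads in controls, 51, 101 and 53 with dopamine and 202, 42 and 125 with cocaine. With inhibitor the reads were 123, 11 and 143 in control, 39, 68 and 97 in dopamine and 80, 45 and 93 in cocaine. Both dopamine and cocaine libraries lay wholly above the controls, while the control + inhibitor libraries spanned nearly the whole range.

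The authors' deposited table for dopamine lists KCNJ13 with a log2 fold change of 1.58 and a false discovery rate (FDR) p of 0.00988. The authors' deposited table for cocaine lists KCNJ13 at 2.59 with an FDR p of 1.31e-07, and KCNE1 at 1.65 with an FDR p of 0.05. KCNJ13 and KCNE1 were the only members in any of the 5 deposited tables. In edgeR the KCNJ13 estimates were 1.57 (SE 0.83, adjusted p = 0.422) for dopamine and 2.59 (SE 0.81, adjusted p = 0.0826) for cocaine, so neither passed, and DESeq2 called the cocaine one (adjusted p = 0.0191). For the inhibitor alone the estimate was 2.09 (SE 0.81, adjusted p = 0.863, edgeR). Averaged over inhibitor states the cocaine estimate was 1.12 (SE 0.54, adjusted p = 0.188, edgeR). KCNE1, a small beta subunit best known as the partner of KCNQ1, had 2 to 21 reads per library, and its reads cannot be separated from a near-identical copy, KCNE1B.

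KCNJ13 was high in the libraries where choroid plexus markers were high. TTR, the transthyretin gene that marks choroid plexus epithelium, was at 5.16, 29.2 and 82.2 TPM in controls and 762, 113 and 524 TPM with cocaine. In control + inhibitor TTR was at 316, 23.2 and 549 TPM, low in the same library as KCNJ13. The 7 choroid plexus markers, none at 0 in any library, summed to values that ranged from 72.7 to 203 TPM in controls, 297 to 345 TPM with dopamine and 232 to 955 TPM with cocaine, and AQP1 was called higher with cocaine of the 7. With inhibitor their sums ran from 115 to 667 TPM in control, 153 to 560 TPM in dopamine and 184 to 513 TPM in cocaine. The part of choroid plexus cells in the KCNJ13 values was not tested. KCNJ13 (chr2:232765802-232776565, minus strand) lies within GIGYF2, and no source used here states whether counting used strand, so reads of the 2 genes cannot be told apart where they overlap.

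**Figure D5:**
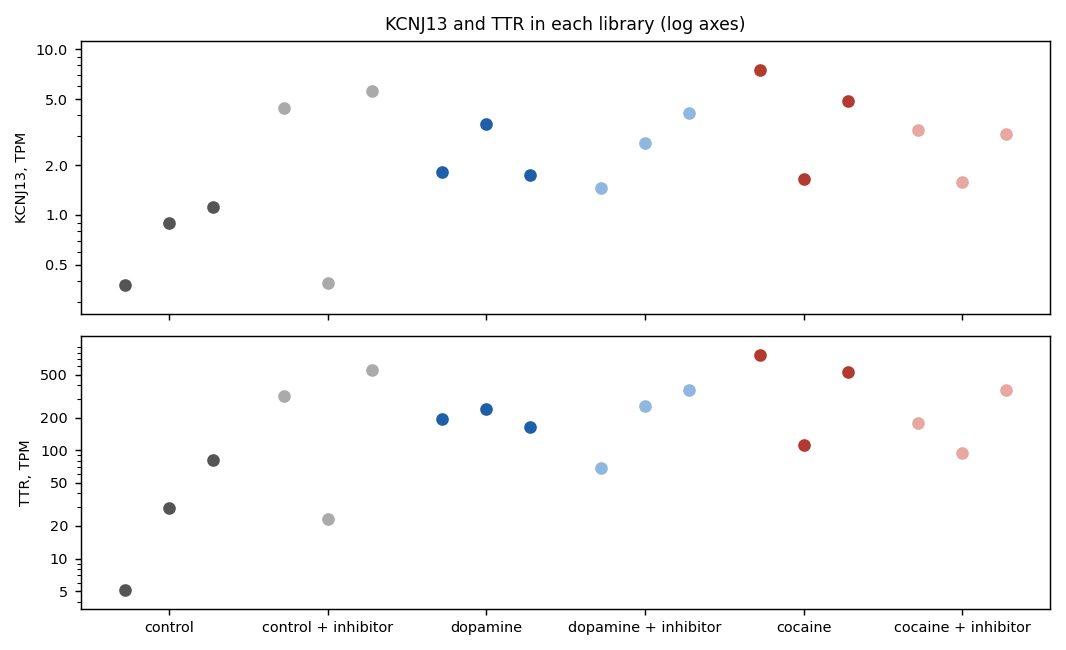
KCNJ13 (top) and the choroid plexus gene TTR (bottom) in each library, in TPM on log axes. Each point is 1 library, in the same order in both panels. Control 1 and control + inhibitor 2 are lowest in both genes, and cocaine 1 is highest in both.

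The KCNJ13 promoter is shown because it contrasts with the KCND3 and KCNC4 windows. It is the window chr2:232776566-232776815 (minus strand, GRCh38.p14, RefSeq), 250 bases before the gene start, with capitals as above.
KCNJ13: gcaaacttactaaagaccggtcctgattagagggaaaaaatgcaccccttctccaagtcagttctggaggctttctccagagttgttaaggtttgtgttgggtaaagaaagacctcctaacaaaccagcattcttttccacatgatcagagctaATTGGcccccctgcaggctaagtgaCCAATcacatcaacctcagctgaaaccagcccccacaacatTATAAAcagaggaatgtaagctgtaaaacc
It held a TATA box starting 30 bases before the gene start and CCAAT boxes starting 96 and 71 bases before it, and no GC box. Its G and C content was 45.2%, with 1 CpG pair. Of the members lowered in averaged cocaine, KCNK2 (42.8%, 4 CpG pairs) and KCNAB1 (45.6%, 4) were also low. KCNK3 (76.4%, 27 CpG pairs), lowered too, was high. A link between promoter letters and direction of change was not tested. A TATA box was found in 4 of the 60 members and in 11.1% of all promoters, and a CCAAT box in 18 members and in 33% of all promoters.

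Other members linked to epithelia, vessels or glia gave no call with cocaine or dopamine against control. KCNE2, a beta subunit also found in choroid plexus, had 1 to 12 reads per library and a cocaine estimate of 0.59 with an SE of 0.54 on the log2 scale. KCNQ1, its epithelial partner, ranged from 0.271 to 0.768 CPM. KCNJ10 (Kir4.1), the main potassium-buffering channel of astrocytes, had 12.6, 8.62 and 12.9 CPM in controls and 8.43, 11.7 and 8.32 CPM with cocaine, with overlap. KCNJ8, a pore subunit typical of pericytes, had 2.63, 4.51 and 4.33 CPM in controls and 2.63, 2.58 and 3.07 CPM with dopamine (log2 fold change -0.47, adjusted p = 0.339, edgeR).

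After KCNJ13, the most variable members with at least 10 reads everywhere were KCNQ5 (3.79-fold between lowest and highest library), KCNJ16 (3.39-fold), KCNJ2 (2.86-fold), KCNMB2 (2.79-fold), KCNA1 (2.76-fold), KCNJ5 (2.72-fold) and KCNG2 (2.64-fold). Cocaine + inhibitor 1 was the lowest library for KCNQ5, KCNJ16, KCNJ2 and KCNA1, and cocaine 3 for KCNMB2 and KCNJ5. KCNQ5, another M-current gene, had 1.23 CPM in cocaine + inhibitor 1 and 2.36 to 4.65 CPM in the other 17 libraries. KCNQ3 was high in the same library, at 192 CPM, against 82.8 to 156 CPM elsewhere. At the other end, KCNMB4 (1.22-fold), KCNN1 (1.23-fold), KCNH2 and KCNA6 (both 1.25-fold) and KCNK10 (1.27-fold) were the steadiest members.

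Genes that work with these channels but carry other symbols were read from lists. Among 13 partners, cocaine against control lowered DPP6, HCN3 (log2 fold change -0.27, adjusted p = 0.0414, edgeR) and HCN4 (-0.25, adjusted p = 0.0402, edgeR), and none rose, where 2.59% of all genes were called lower. HCN genes encode the cation channels of the hyperpolarisation-activated current. Averaged over inhibitor states 5 fell, among them DPP6, DPP10 (-0.34), HCN4 (-0.16) and LGI1 (-0.38), a secreted protein tied to Kv1 channels, where 7.16% of all genes were called lower. With dopamine none of the 13 passed by edgeR and 4 had an unadjusted p under 0.05, all lower, against 6.94% of all genes. DESeq2 called 2, HCN3 and ABCC8. Among 11 genes of other potassium transport, SLC12A5, the neuronal potassium-chloride cotransporter KCC2, fell with cocaine (log2 fold change -0.61, adjusted p = 0.039, edgeR). Averaged over inhibitor states SLC12A5 fell and SLC12A7 rose (0.31, adjusted p = 0.0428, edgeR).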

How the data were processed

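PolyA RNA was sequenced from 18 organoid libraries, 6 groups of 3 assigned by the treatment label and numbered in accession order, which only names them. The authors deposited a table of raw read counts, not normalized, and TPM values, per the file headers. Per the submitters' processing notes the genome was GRCh38/hg38; no source used here names the aligner, counter or strand setting. In 13 members the gene overlaps a protein-coding gene, and KCNJ12 and KCNE1 have near-identical copies, so those counts are uncertain. The authors deposited 5 comparison tables with log2 fold changes, p-values and FDR p-values, per the file headers. Their comparator was found by matching to group TPM means, and for dopamine and cocaine it was the control.

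Counts were tested with edgeR 4.0.16 (R 4.3.3): TMM scaling, filterByExpr with a minimum count of 10, 1 mean per group over all 18 libraries, robust two-sided quasi-likelihood tests, and Benjamini-Hochberg adjustment over 18913 genes at 0.05. The test was checked on simulated data. Depth was 23789195 to 30327891 reads, and no libraries agreed within sampling noise (chi-square per gene 3.54 to 21.7 within groups). Alternatives were DESeq2 1.42.0, RLE factors, no filter, fits of 2 groups, and leaving out libraries. Upstream sequences came from RefSeq (GRCh38.p14); 60 of 83 members matched, and those on chromosome 8 were not printed. Named genes were those called, the highest of each subfamily in controls, the 8 most variable, 6 linked to other cells, and those in the authors' tables. Results of 4 members and of some other genes are not reported here. Genes given outside this rule were chosen after their values were seen. The members, lists and comparisons were chosen with earlier results of these data known. Another cell line in the design text was not analysed here.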

Additional observations from a re-analysis of the deposited data

How the results depend on the processing

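No member called with cocaine changed sign under any alternative, a check with little room to fail for members called on these same libraries. In cocaine against control, 9 calls became 15 with DESeq2, 17 in a fit of those 2 groups alone and 0 without cocaine 3 and cocaine + inhibitor 1, a setting chosen after seeing the data; leaving out 1 library gave 0 to 10. The averaged cocaine comparison, 21 calls, gave 10 to 30 leaving out 1 library, 4 without both of those libraries and 25 with DESeq2. In cocaine + inhibitor against control + inhibitor, 0 calls became 2 with DESeq2 and 0 to 12 leaving out 1 library. Dopamine against control gave 1 call with DESeq2 (KCNJ9) and 2 in a fit of those 2 groups (KCNT1 among them), and averaged dopamine gave 1 with DESeq2. The test for any difference gave 2 calls, 19 with DESeq2 and 0 to 14 leaving out 1 library. The cause of these moves was not tested, beyond the smaller number of libraries. Over all genes DESeq2 called 1516 in cocaine against control, 3121 in averaged cocaine and 250 in cocaine + inhibitor against control + inhibitor. It called 385 in dopamine against control, 286 in averaged dopamine and 1972 in the test for any difference. Shares of all genes in fits that leave out libraries are not given here. RLE factors and no filter moved no count by over 1.5 times. No paired analysis was possible because the labels give no replicate number shared between groups. Depth limits members near 10 reads, such as KCNE1, KCNE2 and KCNK5.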
